A study of Mus musculus with 6 samples.

Results

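ATP-binding cassette (ABC) transporters use the energy of ATP to move lipids, bile salts, drugs, heme and other cargo across membranes. The genes described here were all protein-coding rows of the deposited gene table whose symbol reads Abc, a subfamily letter from a to g and a number with an optional last letter, which gave 50 genes of 22052 protein-coding rows and 41799 rows in all. The rule used symbols only and no measured value. Sinusoidal endothelial cells (SECs), the fenestrated cells that line liver capillaries, were sequenced from fibrotic livers in 3 control libraries and in 3 libraries from mice whose endothelium had lost RBPj, the DNA-binding protein through which Notch receptors act on transcription. Male mice of both groups were 12 to 14 weeks old by the labels. At 4 to 6 weeks of age they had received tamoxifen (2 mg per 20 g of body weight) daily for 7 days. Carbon tetrachloride (CCl4, 0.6 μl per g, 15% in olive oil) followed 2 times a week for 6 weeks. The Cre driver, the alleles carried by the controls and any pooling of mice are not stated in the labels. The strain field reads C57BL/6 for the controls and knock-out replicate 1, C57BL/7 for knock-out replicate 2 and C57BL/8 for knock-out replicate 3. No library of uninjured liver was analysed here.

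Mammalian ABC genes fall into subfamilies A to G. Many A, C and G members export sterols, phospholipids or conjugated drugs, subfamily B holds drug and bile pumps of the cell surface together with mitochondrial carriers, and subfamily D serves mainly peroxisomes. Members of E and F have no membrane domain and work in translation. In the liver the bile pumps belong to hepatocytes, while in endothelium elsewhere in the body, above all at the blood-brain barrier, the drug pumps return foreign compounds to the blood.

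Total counts ran from 10372195 to 12326770 per library, of which the ABC genes took 0.195% to 0.292%, with the highest share in knock-out replicate 1. Values of single genes are normalized CPM (the count scaled to the library total after TMM adjustment), and comparisons between genes use RPKM, which also divides by gene length. Rbpj itself was at 18.6, 14.5 and 16.4 CPM in the controls and at 11.6, 8.10 and 11.9 CPM in the knock-outs, with no overlap, although its log2 fold change of -0.64 ± 0.19 (SE) did not pass the test (edgeR adjusted p = 0.187). The 12 sinusoidal endothelial markers, among them Stab2 and Kdr, were all detected. Their sum was higher in every knock-out library (21325, 26319 and 21940 CPM) than in any control library (19602, 20052 and 13948 CPM), with 4 of the 12 higher and 1 lower at an unadjusted edgeR p under 0.05 and 0 called after adjustment, while DESeq2 called 2 higher (Stab2 and Tie1) and 1 lower (Clec4g). Markers of other liver cells were present too and differed between libraries. The 6 erythroid and platelet markers summed to 19.2, 14.5 and 23.9 CPM in the controls and 162, 52.7 and 32.8 CPM in the knock-outs. Most of that sum was Itga2b, with 18.8, 13.8 and 21.7 CPM against 157, 52.5 and 31.0 CPM. DESeq2 called Itga2b higher and edgeR did not (adjusted p = 0.185). Sums for markers of hepatocytes, neutrophils, macrophages, and stellate cells and pericytes are given below beside single members. Not all of these sums moved with the member they stand beside. Cholangiocyte and lymphocyte markers are not reported here by value. In bulk RNA, fewer cells of a type and less RNA per cell cannot be told apart.

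Abcb1b was the ABC gene that passed the test. Abcb1a and Abcb1b are neighbouring mouse genes that each encode a form of P-glycoprotein, the broad-range drug pump, and Abcb4 beside them encodes the phosphatidylcholine flippase of bile. On mm10 chromosome 5, Abcb1a runs from 8567091 to 8748575, Abcb1b from 8798147 to 8866315, both on the + strand, with gaps of 49571 bases between them and 27282 bases from Abcb1b to Abcb4. Their coding sequences, taken from the longest open reading frames of GENCODE transcripts on GRCm38, are 3831 bases each and were identical at 88.0% of 3822 aligned positions, against 75.5% for Abcb1a and Abcb4. The first 120 coding bases are shown because they let the copies be told apart, and the 15 capitals mark where they differ.
Abcb1a: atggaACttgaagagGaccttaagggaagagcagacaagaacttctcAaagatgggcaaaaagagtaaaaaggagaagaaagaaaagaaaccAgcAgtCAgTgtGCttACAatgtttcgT
Abcb1b: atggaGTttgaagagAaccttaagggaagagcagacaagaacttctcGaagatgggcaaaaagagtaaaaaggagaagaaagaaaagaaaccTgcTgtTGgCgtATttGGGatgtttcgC
Elsewhere the copies share an identical run of 338 bases, and 1405 coding bases lie in identical runs of at least 50, so a short read from such a stretch fits both genes. How the counting treated such reads is not stated, and the split between the copies is uncertain to that extent.

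The 250 bases before the RefSeq start of Abcb1b (GRCm38.p6, chr5:8797897-8798146, + strand) are printed because Abcb1b is the member that changed. Capitals mark CCAAT boxes (CCAAT or its reverse complement ATTGG) and the GC box (GGGCGG or CCGCCC), classical promoter elements.
Abcb1b upstream: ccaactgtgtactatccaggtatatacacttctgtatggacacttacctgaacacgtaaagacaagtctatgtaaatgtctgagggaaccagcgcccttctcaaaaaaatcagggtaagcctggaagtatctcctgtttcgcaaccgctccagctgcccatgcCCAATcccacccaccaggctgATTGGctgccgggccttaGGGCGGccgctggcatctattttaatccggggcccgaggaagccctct
This stretch held 2 CCAAT boxes, 1 GC box and 0 copies of TGGGAA or TTCCCA, the core letters that RBPJ binds. In windows of 250 bases before to 50 after a start, which RefSeq gives for 38 of the 50 members, that core was found in 8 members (21.1%) and in 28.3% of all 27025 genes with such a window. A match or its lack describes these letters only.

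Abcb1b rose in the knock-out. It was at 7.04, 6.84 and 5.50 CPM in control replicates 1, 2 and 3 and at 18.1, 16.3 and 16.6 CPM in knock-out replicates 1, 2 and 3. Every knock-out library lay above every control library, with means of 6.46 ± 0.835 and 17.0 ± 0.965 CPM (SD, n = 3 each). The log2 fold change was 1.39 ± 0.15 (SE), a 2.63-fold rise (edgeR quasi-likelihood test, adjusted p = 0.0470). The underlying counts were 66, 81 and 58 against 199, 199 and 214. Of all 15404 genes tested, 16 (0.104%) were called higher and 14 (0.0909%) lower, and Abcb1b was the 1 higher and 0 lower among the 39 ABC genes that passed the filter on low counts. The adjusted p lay just under the threshold of 0.05, and it was 0.0651 to 0.196 when any 1 of the 6 libraries was left out, with log2 fold changes of 1.29 to 1.46. DESeq2 gave an adjusted p of 8.72e-08. The sum of the sinusoidal endothelial markers also separated the groups in the same direction, with a median log2 fold change of 0.38 over the 12 markers. That separation leaned on Stab2, at 2855, 2843 and 2021 CPM in the controls and 5031, 5077 and 3936 CPM in the knock-outs. At an unadjusted edgeR p under 0.05, 4 of the 12 were higher and 1 lower. Lyve1 (-0.73) and Clec4g (-1.03) had negative log2 fold changes. The part of endothelial RNA in the values of Abcb1b was not tested.

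Abcb1a gave no such difference. It was at 7.68, 10.97 and 7.87 CPM in the controls and at 10.1, 8.18 and 7.82 CPM in the knock-outs. The groups overlapped throughout, and the log2 fold change was -0.03 ± 0.21 (edgeR adjusted p = 0.959, 95% interval -0.53 to 0.48). The balance of the copies was compared directly. Abcb1b made up 47.8%, 38.4% and 41.1% of the summed counts of both copies in the controls, and 64.2%, 66.6% and 67.9% in the knock-outs. Wilson 95% intervals, which cover counting error only, reached at most 56.1% in a control and down to 58.7% in a knock-out, so they did not overlap between groups. The means of 42.4% ± 4.85 and 66.2% ± 1.89 (SD, n = 3 each) differed by 23.8 percentage points (exact permutation test, two-sided, p = 0.1, the smallest that 3 against 3 allows). With both copies summed into 1 row, which removes only the split of reads between them, the log2 fold change was 0.75 ± 0.15 (edgeR adjusted p = 0.102). Shared reads that were dropped or counted for each copy would still alter this sum.

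**Figure D1:**
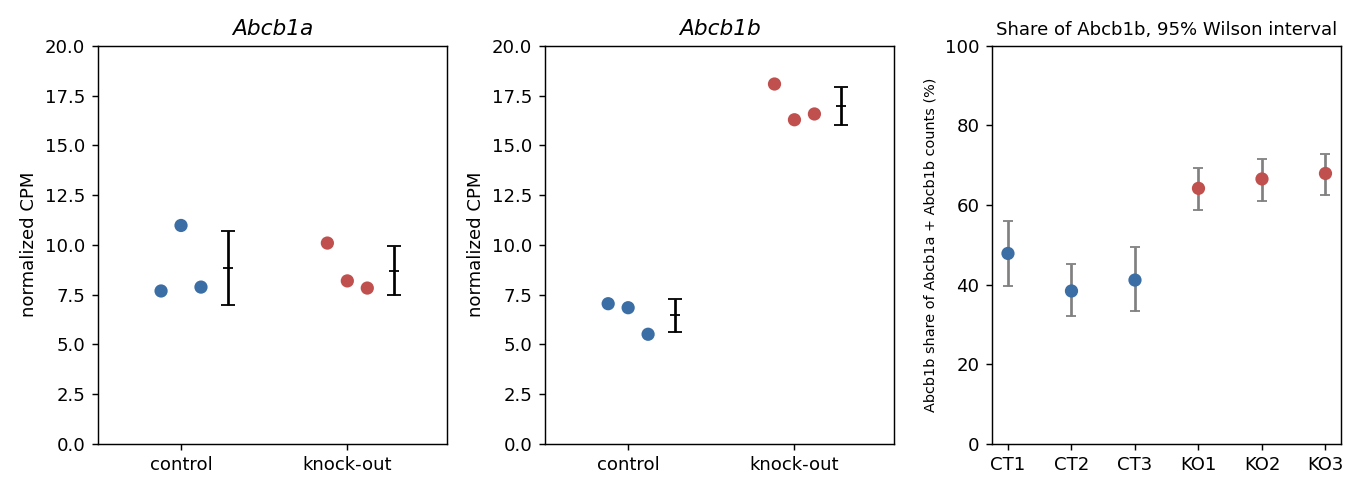
Normalized CPM of Abcb1a and Abcb1b in each library (points; black bars, mean ± SD, n = 3) and the share of Abcb1b in the summed counts of both copies with 95% Wilson intervals (CT, control; KO, knock-out). Abcb1b sat between 16.3 and 18.1 CPM in the knock-outs and between 5.50 and 7.04 CPM in the controls, while the groups of Abcb1a overlapped.

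Gm5106, a non-coding row on the opposite strand, overlaps the Abcb1b row by 143 bases. Its counts were 5, 9 and 7 in the controls and 15, 13 and 17 in the knock-outs, also without overlap of the groups, and its log2 fold change was 0.91 ± 0.31 (edgeR adjusted p = 0.222). Without knowledge of strand in the counting, reads within the shared bases cannot be told apart. With 66 counts in all against 817 for Abcb1b, this row is small beside the gene. Rundc3b, opposite to Abcb1a, held 129 counts against 597.

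The other drug pumps did not pass the test, and their groups overlapped. Abcg2, the breast cancer resistance protein that exports drugs and urate, was at 67.9, 61.4 and 49.3 CPM in the controls and 52.3, 50.7 and 51.3 CPM in the knock-outs (log2 fold change -0.21 ± 0.13, edgeR adjusted p = 0.450). Abcc1, an exporter of glutathione conjugates and leukotrienes, was at 44.3, 58.8 and 57.8 CPM and 56.1, 64.6 and 52.6 CPM. Abcc4 and Abcc5 export cyclic nucleotides. Abcc4 was at 113.7, 108.7 and 83.6 CPM and 122.7, 113.3 and 105.2 CPM, and Abcc5 at 138.2, 101.4 and 116.4 CPM and 109.1, 115.6 and 106.1 CPM. All 4 pairs of groups overlapped, with edgeR adjusted p from 0.450 (Abcg2) to 0.737 (Abcc1). The intervals of the log2 fold change were -0.53 to 0.11 for Abcg2, -0.25 to 0.46 for Abcc1, -0.19 to 0.50 for Abcc4 and -0.43 to 0.21 for Abcc5, none of which reaches the change of Abcb1b.

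By level the family spanned a wide range. Per gene length, 14 members had a mean of at least 10 RPKM over the 6 libraries, 16 had 1 to 10 RPKM and 20 had less than 1 RPKM. Abcg1 (43.7 RPKM), Abcc9 (42.3 RPKM) and Abca1 (35.0 RPKM) led, followed by Abcc3 (22.7 RPKM), Abca3 (20.2 RPKM) and Abcg2 (18.8 RPKM). The ranges of the leading 3 over libraries overlapped (33.8 to 56.2 RPKM for Abcg1, 25.2 to 62.6 RPKM for Abcc9 and 23.1 to 70.1 RPKM for Abca1), as did those of the next 3, so the order within each trio is not firm. Abcb1b ranked 25 with 2.73 RPKM and Abcb1a 28 with 1.61 RPKM. The 6 members with the most counts together held 60.3% of the family's counts.

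**Figure D2:**
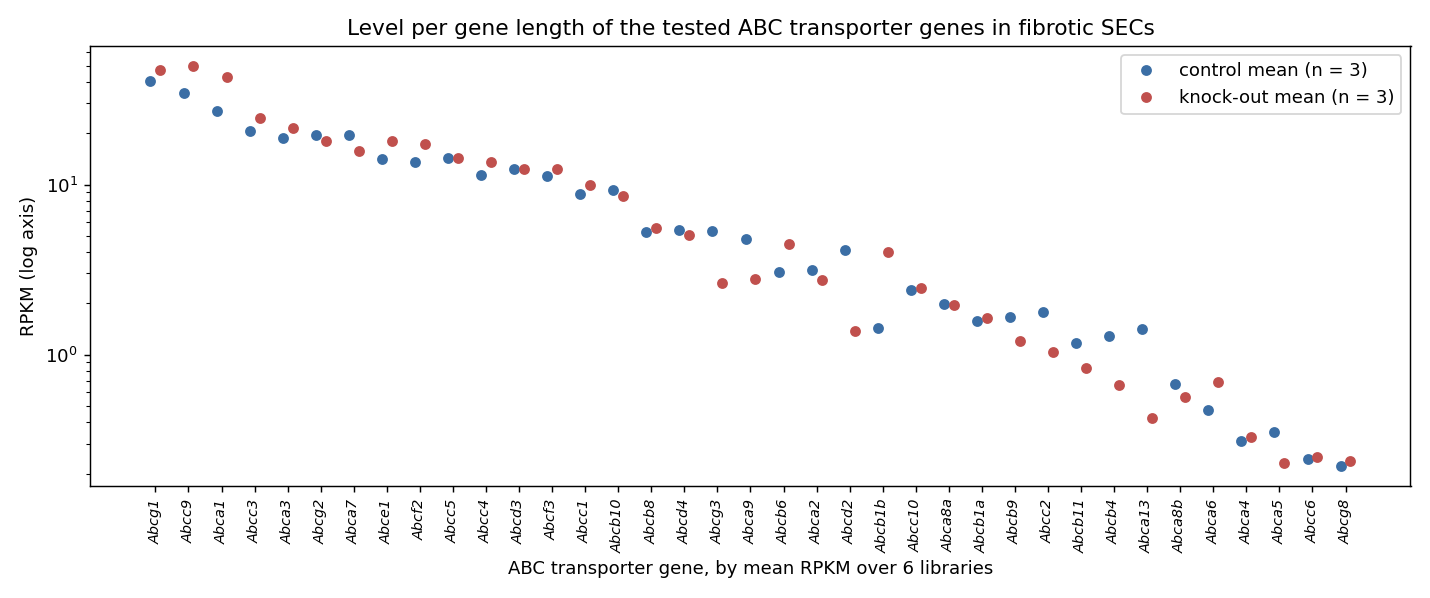
Group means of RPKM (log axis) for 37 of the 39 tested ABC genes, ordered by their mean over 6 libraries. Abcg1, Abcc9 and Abca1 lead in both groups, and the knock-out point of Abcb1b lies above its control point.

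Abcg1 and Abca1 export cholesterol and phospholipid to lipoprotein particles and are known targets of the LXR receptors. Abcg1 was at 217.9, 263.7 and 244.3 CPM in the controls and 312, 219 and 262 CPM in the knock-outs (log2 fold change 0.13 ± 0.16, edgeR adjusted p = 0.704). Abca1 was at 301, 321 and 256 CPM in the controls and 704, 285 and 323 CPM in the knock-outs. Its high value came from knock-out replicate 1 alone, the other knock-outs lying within or just above the range of the controls (log2 fold change 0.58 ± 0.36, edgeR adjusted p = 0.450, and 0.07 without that library). That library also gave the family its highest summed level, 2783 CPM against 2047 to 2162 CPM in the other 5. Among 13 partner genes of sterol handling, with a median log2 fold change of -0.32, edgeR called 0 in either direction, and 2 were higher and 4 lower at an unadjusted p under 0.05, while DESeq2 called 1 higher, Scarb1. The smallest p belonged to Scarb1, the scavenger receptor for high-density lipoprotein, with 150.4, 187 and 207 CPM against 313, 269 and 265 CPM (log2 fold change 0.64 ± 0.15, edgeR adjusted p = 0.137), and to Mylip, which degrades the LDL receptor (0.67 ± 0.19, adjusted p = 0.180). Of 18 nuclear receptors and other regulators of ABC genes, 16 were tested (median -0.17) and 0 were called by edgeR or DESeq2, with 0 higher and 1 lower at an unadjusted edgeR p under 0.05. The smallest p there belonged to Srebf2 (log2 fold change -0.42 ± 0.13, edgeR adjusted p = 0.191) and Nr1h3, the gene of LXR alpha (-1.25, adjusted p = 0.298). The 2 untested regulators, Rxrb and Ppard, were at 0 in all libraries. Whether those zeros reflect the cells or the table was not tested.

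Abcc9 encodes SUR2, the regulatory subunit of vascular ATP-sensitive potassium channels, whose pore is formed by the product of Kcnj8. It was at 337.5, 195 and 354 CPM in the controls and 486, 390 and 303 CPM in the knock-outs, with overlap (log2 fold change 0.41 ± 0.28, edgeR adjusted p = 0.484). Kcnj8 was at 72.2, 34.6 and 68.0 CPM in the controls and 214, 98.2 and 91.7 CPM in the knock-outs, without overlap (1.21, edgeR adjusted p = 0.247). Both genes were lowest in control replicate 2 and highest in knock-out replicate 1. Both are also known from pericytes. The 12 stellate cell and pericyte markers, Kcnj8 included, summed to 2885, 4183 and 8024 CPM in the controls and 1046, 3190 and 2351 CPM in the knock-outs, and their part in the values of Abcc9 was not tested. The non-coding row 5330439B14Rik on the opposite strand of Abcc9 held 616 counts against 23221.

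Abca3, the phospholipid transporter known from lamellar bodies of the lung, was at 118, 143 and 124 CPM in the controls and 148, 142 and 128 CPM in the knock-outs (log2 fold change 0.12 ± 0.12, edgeR adjusted p = 0.623). An opposite-strand non-coding row, D330041H03Rik, had 1124 counts beside the 9127 of Abca3. Abcc3, the basolateral exporter of bile salts and glucuronides, was at 91.8, 120 and 112 CPM and 145, 112 and 107 CPM (0.17 ± 0.16, adjusted p = 0.612). Neither gene separated the groups.

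In subfamily D the peroxisomal members import fatty acids and related acids, Abcd2 very-long-chain fatty acids and Abcd3 branched-chain ones and bile acid precursors. Abcd2 was at 39.3, 20.4 and 21.1 CPM in the controls and 14.5, 3.60 and 6.66 CPM in the knock-outs, without overlap (log2 fold change -1.71 ± 0.55, edgeR adjusted p = 0.215). The log2 fold change was -2.37 without knock-out replicate 1 and -1.33 without control replicate 1. DESeq2 called Abcd2 lower (adjusted p = 0.0257), 1 of 2 lower calls among the 37 members it gave an adjusted p, where 2.55% of all genes were called lower and 3.17% higher. Limma-voom also called 2 members lower, where 1.44% of all genes were called lower and 2.05% higher.

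Beside Abcd2, 9 macrophage markers summed to 2075, 2342 and 3590 CPM in the controls and 1563, 451 and 730 CPM in the knock-outs, none of the markers being at 0 in all libraries. The groups of that sum did not overlap either, but this separation leaned on Lyz2. That marker alone gave 1270 CPM in control replicate 1 and 427 CPM in knock-out replicate 1. At an unadjusted edgeR p under 0.05, 2 of the 9 markers were lower and 0 higher. The groups of Csf1r and Cd5l, for example, overlapped. The part of macrophage RNA in the values of Abcd2 was not tested. Abcg3, a rodent relative of Abcg2, ran from 8.42 to 23.7 CPM in the controls and from 4.09 to 14.5 CPM in the knock-outs, lowest in knock-out replicates 2 and 3 like the macrophage sum. Abcd3 and Abcd4 overlapped between groups. Abcd3 was at 37.5 to 56.0 CPM in the controls and 39.1 to 48.1 CPM in the knock-outs, and Abcd4, which works in lysosomal cobalamin export, at 14.1 to 18.0 and 12.7 to 14.3 CPM. Of 9 peroxisome partners, 8 were tested (median -0.17) and 0 were called by edgeR, at an unadjusted p under 0.05 or by DESeq2, the smallest p being that of Ehhadh (log2 fold change -0.73 ± 0.33), an enzyme of peroxisomal beta-oxidation.

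At an unadjusted edgeR p under 0.05, 3 members were higher (7.69% of the 39, against 9.39% of all tested genes) and 4 lower (10.3% against 8.13%). These shares lie near those of all genes. Besides Abcb1b and Abcd2 they included Abcf2, Abcb6, Abca5 and Abca7. Abcf2, a cytosolic member without a membrane domain, was at 38.1, 44.2 and 45.0 CPM in the controls and 50.1, 53.4 and 50.6 CPM in the knock-outs (log2 fold change 0.28 ± 0.10, edgeR adjusted p = 0.247). Abcb6, a porphyrin transporter, was at 7.78, 8.86 and 11.2 CPM and 11.4, 14.1 and 12.9 CPM (0.46 ± 0.18, adjusted p = 0.268). Neither pair of groups overlapped, but for Abcb6 the highest control lay just under the lowest knock-out.

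Abca5, a lysosomal member linked to cholesterol handling, was at 2.88, 2.95 and 3.23 CPM in the controls and 1.91, 1.39 and 2.25 CPM in the knock-outs (log2 fold change -0.70 ± 0.26, edgeR adjusted p = 0.247). Abca7, a lipid transporter tied to phagocytosis and known as an Alzheimer disease risk gene in humans, was at 173.8, 125 and 119 CPM and 98.9, 113 and 102 CPM (-0.41 ± 0.17, adjusted p = 0.278). Control replicate 1 was the highest library for Abca7. Groups did not overlap for 4 members that were higher (10.3%, against 13.2% of all tested genes) and 6 that were lower (15.4% against 11.7%). Further ones were Abce1 on the higher side and Abcb9 and Abca2 on the lower side. Abce1, the factor that splits ribosomes after termination, was at 50.8 to 60.1 CPM in the controls and 62.1 to 72.2 CPM in the knock-outs (log2 fold change 0.25 ± 0.11, edgeR adjusted p = 0.296), while 9 translation partners (median 0.12) held 0 calls by edgeR, at an unadjusted p under 0.05 or by DESeq2, with the smallest p in Eif2s1 (0.27 ± 0.16) and Gcn1l1 (0.26 ± 0.19). Abcb9, a lysosomal peptide transporter, was at 4.47 to 7.40 and 3.77 to 4.42 CPM, and Abca2, a lysosomal lipid transporter, at 31.4 to 38.8 and 27.0 to 31.0 CPM.

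**Figure D3:**
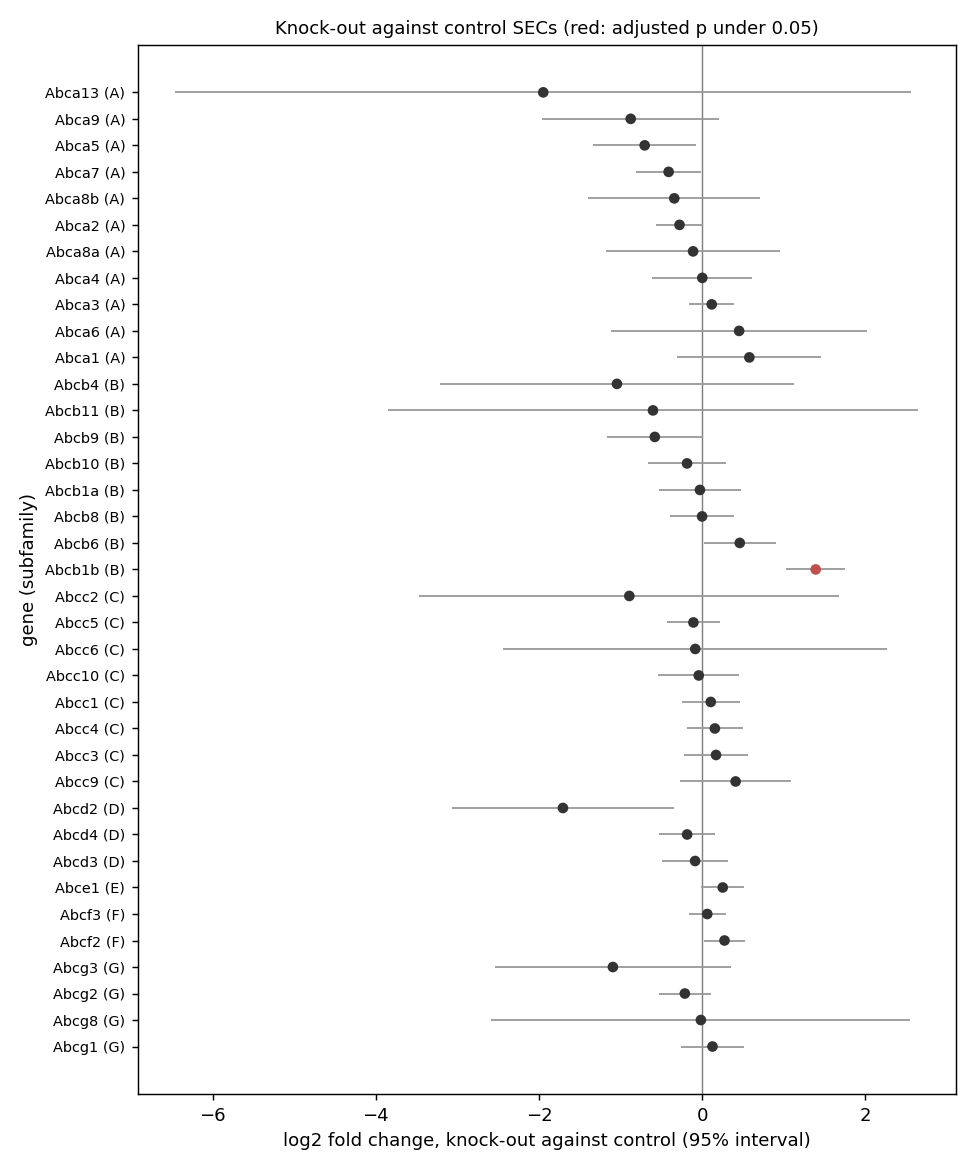
Log2 fold change of knock-out against control with its 95% interval for 37 of the 39 tested ABC genes, by subfamily, with genes past an adjusted p of 0.05 in red. Abcb1b, at 1.39, is the only red point, and the widest intervals belong to Abca13 and the hepatocyte pumps.

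Across the 39 tested members the log2 fold changes ran from -1.95 (Abca13) to 1.39 (Abcb1b), with a median of -0.08 beside -0.03 over all tested genes. A positive sign was found for 15 members (38.5%, against 46.2% of all tested genes) and a negative one for 24. Within 0.5 log2 units of 0 lay 28 of the 39 (71.8%), against 74.4% of all tested genes. By subfamily the median was -0.28 for the 11 tested A members, -0.13 for 9 B members, 0.03 for 8 C members, -0.34 for 4 D members and -0.11 for 4 G members. None of these medians was tested.

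**Figure D4:**
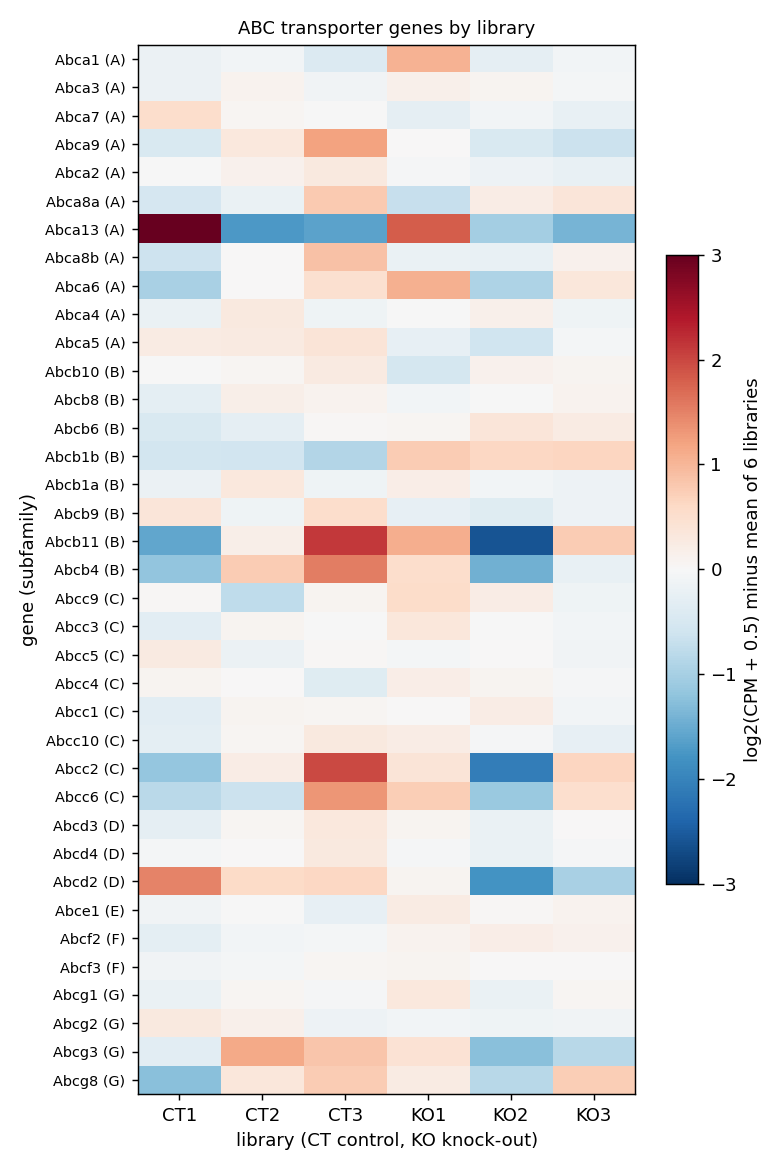
Log2(CPM + 0.5) of 37 of the 39 tested ABC genes in each library, as the difference from the mean of the 6 libraries (CT, control; KO, knock-out), by subfamily, with colours that end at a difference of 3. Abcb1b is above its mean in all 3 knock-outs and below it in all 3 controls, whereas Abcb11, Abcb4 and Abcc2 are low in CT1 and KO2 and Abca13 is high in CT1 and KO1.

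The pumps of hepatocytes other than Abcc3 were at very different levels in libraries of the same group. Abcb11, the bile salt export pump, was at 0.853, 4.05 and 17.1 CPM in the controls and 8.09, 0.164 and 6.28 CPM in the knock-outs. Abcb4 was at 1.07, 5.57 and 9.77 CPM and 4.63, 0.818 and 2.56 CPM. Abcc2, the canalicular exporter of conjugated bilirubin, was at 2.13, 6.33 and 22.8 CPM and 7.18, 0.900 and 8.75 CPM. Control replicate 1 and knock-out replicate 2 were the lowest libraries for all 3. Abcc6, lost in pseudoxanthoma elasticum, was at 0.640, 0.760 and 4.46 CPM in the controls and 2.82, 0.409 and 2.32 CPM in the knock-outs. Abcg5 and Abcg8 form the sterol exporter of bile, and their rows overlap by 6622 bases on opposite strands. Abcg5 had 0, 4 and 5 counts in the controls and 8, 2 and 12 in the knock-outs, and Abcg8 had 0, 12 and 16 against 10, 2 and 19. A count of 0 in control replicate 1 allows up to 0.320 CPM, the worth of 3 counts.

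The 12 hepatocyte markers, led by Alb, summed to 499, 1547 and 2310 CPM in the controls and 3685, 216 and 1971 CPM in the knock-outs. Control replicate 1 and knock-out replicate 2 were the lowest 2 libraries for 10 of these 12 markers and for 6 of the 7 hepatocyte pumps (Abcc3 being the exception), against 6.04% of all tested genes. This pair of libraries was picked from these same values. The highest library differed, being knock-out replicate 1 for the marker sum and control replicate 3 for Abcb11, Abcb4, Abcc2 and Abcc6. The part of hepatocyte RNA in the pump values was not tested. None of the tested pumps separated the groups, with edgeR adjusted p from 0.574 (Abcb4) to 0.995 (Abcg8), and the signs of several turned when a single library was left out. Among 11 liver uptake carriers and flippases, 7 were tested (median -0.45) and edgeR called 0, with 1 lower at an unadjusted p under 0.05 and 1 called lower by DESeq2, in both cases Slco2b1. Slco2b1, an organic anion carrier, had the smallest p, with 43.8, 60.1 and 88.3 CPM against 25.6, 17.5 and 25.4 CPM (log2 fold change -1.49 ± 0.29, edgeR adjusted p = 0.103). Its groups did not overlap, as those of the macrophage marker sum, which leaned on Lyz2, did not. The part of macrophage RNA in the values of Slco2b1 was not tested. Tmem30a, the flippase chaperone, followed (-0.30 ± 0.15).

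Abca13, a very long member known from myeloid cells, showed the widest spread of the family. It was at 76.1, 1.01 and 1.14 CPM in the controls and 17.0, 1.96 and 1.39 CPM in the knock-outs. Control replicate 1 and knock-out replicate 1 were the 2 highest libraries, as they were for 6 of 6 neutrophil markers, whose sum was 18609, 287 and 321 CPM in the controls and 3961, 700.1 and 561 CPM in the knock-outs. The same pair, also picked from these values, was highest for 2 of the 39 tested members (Abca13 and Abcc4) and for 11% of all tested genes. The part of neutrophil RNA in the level of Abca13 was not tested, and its log2 fold change of -1.95 ± 1.84 did not pass (edgeR adjusted p = 0.613).

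**Figure D5:**
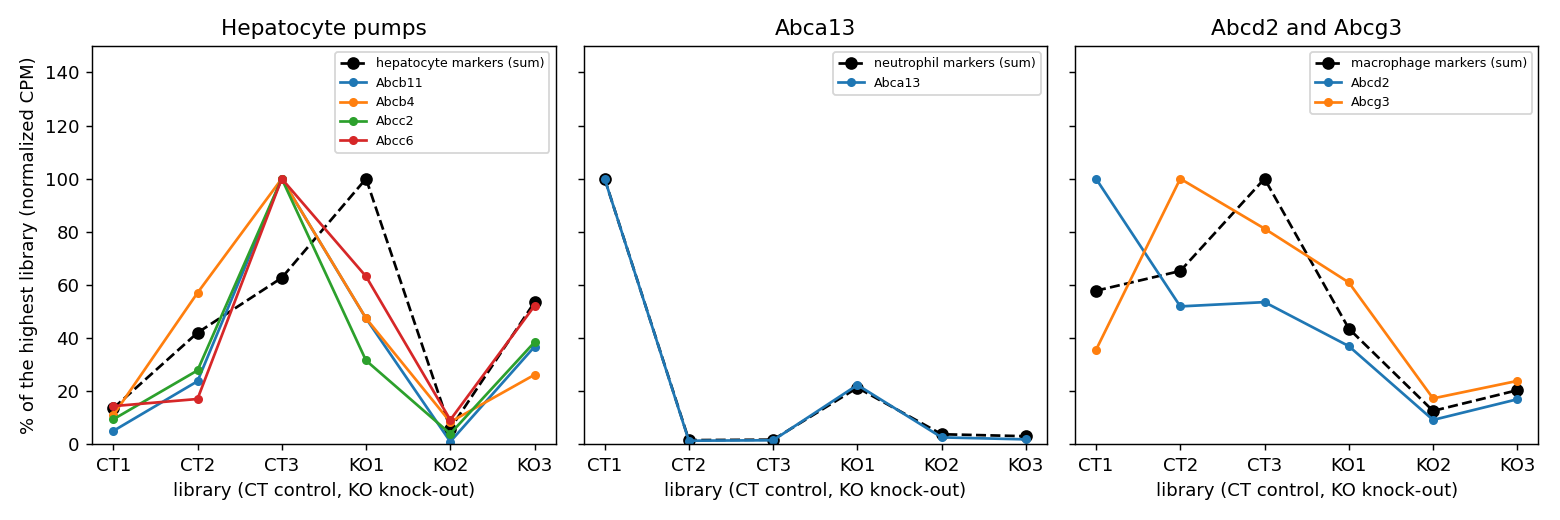
Normalized CPM in each library as a percentage of the highest library (CT, control; KO, knock-out) for 4 hepatocyte pumps with the hepatocyte marker sum, for Abca13 with the neutrophil marker sum, and for Abcd2 and Abcg3 with the macrophage marker sum (dashed black). The pumps and hepatocyte markers are lowest in CT1 and KO2, and Abca13 peaks in CT1 with the neutrophil markers.

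The mitochondrial members Abcb8 and Abcb10 did not pass the test. Abcb8 (log2 fold change 0.00) and Abcb10 (-0.18), which serve potassium channels and heme synthesis, had overlapping groups, at 14.1 to 19.7 and 27.4 to 47.7 CPM over the 6 libraries. Among 10 heme and iron-sulfur partners (median -0.12) 0 were called by edgeR, at an unadjusted p under 0.05 or by DESeq2, the smallest p being those of Cpox (-0.43 ± 0.18) and Fech (-0.29 ± 0.15), enzymes of the last steps of heme synthesis. Abcb8 shares bases with Cdk5 on the opposite strand (1767 counts), so its level is uncertain to that extent. Further tested members, Abca4, Abca6, Abca8a, Abca8b, Abca9, Abcc10 and Abcf3, had overlapping groups and log2 fold changes from -0.88 (Abca9) to 0.45 (Abca6).

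Of the 50 members, 11 were too low to be tested, with at most 44 counts over all libraries. They were Abca12, Abca14, Abca15, Abca16, Abca17, Abcb5, Abcc8, Abcc12, Abcf1, Abcg4 and Abcg5. Abca15 and Abcb5 had 0 counts in all 6 libraries, which allows up to 0.232 to 0.320 CPM depending on the library. Abcf1, a translation factor used by most cells, had only 0.338 to 0.852 CPM. The window from 500 kb before to 500 kb after it held 15 protein-coding rows, Abcf1 included. All 15 had under 60 counts over the 6 libraries, against 40.7% of all protein-coding rows. Whether these low counts reflect the cells or the table was not tested, and the level of Abcf1 is not read as that of the cells.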

How the data were processed

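RNA from SECs of 3 control and 3 knock-out samples was sequenced, and groups came from the sample titles. The labels do not say that replicates came from separate mice, so p-values reflect only how these samples vary, which may be technical. The submitters' processing notes name bcl2fastq, TopHat2 2.0.13 and mm10. Counting program, annotation and strand setting were not given in the sources used here. Whole-number counts per gene and RPKM values were deposited by the authors, and dividing each count by gene length and library total returned 100% of the RPKM values within 0.1%. Genes kept by filterByExpr (15404) were tested, two-sided, with the edgeR 4.0.16 quasi-likelihood test in R 4.3.3 with TMM scaling and Benjamini-Hochberg adjustment at 0.05.

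Values in every library were given for members past an adjusted or unadjusted p of 0.05, for the 6 highest by RPKM and for members fixed by role, and from each partner list the 2 smallest p. Other genes named were chosen after their values were seen. Of 144 list entries, 2 matched by a RefSeq synonym. Some genes these rules took are counted but not reported here by name. Members and lists were chosen with earlier results of these data known. Alternatives were RLE factors, DESeq2 1.42.0, limma-voom (limma 3.58.1) with quality weights, other filters, protein-coding rows only, a replicate block, summed Abcb1 copies and leaving out each library. Promoters were taken from RefSeq (GRCm38.p6) and coding sequences from GENCODE. Coordinates count from 1. Wilson intervals and limits of 3 counts cover counting error only. Intervals of the log2 fold change rest on the standard error of the edgeR fit, which also includes the spread between libraries. PCR copies were not marked by molecular identifiers.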

Additional observations from a re-analysis of the deposited data

How the results depend on the processing

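The 1 ABC gene called higher, Abcb1b, became 0 with a replicate block (log2 fold change 1.40, adjusted p = 0.0667) and 0 when any library was left out (range 0 to 0), and the count was 3 at an unadjusted p and 4 by non-overlapping groups. The count of lower members, 0, became 2 with DESeq2, 2 with limma-voom, 4 at an unadjusted p and 6 by non-overlapping groups. Over all genes, 16 higher and 14 lower became 35 higher with RLE factors, 114 and 62 with no filter, 47 and 26 with the stricter filter, 49 and 23 with protein-coding rows only, 483 and 389 with DESeq2, 316 and 222 with limma-voom, 1 and 2 with the replicate block, and 0 to 23 and 0 to 18 when a library was left out, the highest without knock-out replicate 1 and 0 without any other. The cause of these shifts was not tested. The median log2 fold change of members ran from -0.16 to 0.075 when a library was left out, the highest without control replicate 3. The share difference of Abcb1b stayed at 21.7 to 26.5 percentage points without any 1 library, and with the replicate block it was 23.8 (exact permutation p = 0.25, the smallest that 3 pairs allow).

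Among the members given by library, signs turned only for those near 0 or of hepatocytes. Abcc6 became 0.039 with the block and 0.22 with limma-voom, and Abcg8 became 0.0057 with protein-coding rows only, 0.016 with the block and 0.0044 with DESeq2. Without 1 library in turn, the log2 fold change ran from -1.17 to 0.95 for Abcb11, -0.14 to 0.18 for Abcb1a, -0.015 to 0.20 for Abcc1, -1.37 to 0.39 for Abcc2, -0.19 to 0.017 for Abcc5, -0.49 to 1.38 for Abcc6 and -0.67 to 0.65 for Abcg8. Same-numbered libraries deviated together with r = 0.19, 0.03 and 0.42. Control replicates 1 and 3 correlated best with the knock-out of the same number, and control replicate 2 with knock-out replicate 3 (0.20). The numbers were not taken as pairs because no label says that they mark a shared day or litter. Abcc6 and Abcg8 rest on few counts, 128 and 59 over the 6 libraries, and the source of their spread was not tested.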
